A study of Mus musculus with 9 samples.

Results

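The anaphase-promoting complex, or cyclosome (APC/C), was followed through 10 of the 24736 genes in the expression tables: 8 subunits (Anapc16, Anapc1, Anapc2, Anapc4, Anapc5, Anapc7, Anapc10 and Anapc11) and the 2 activators Cdc20 and Fzr1. The genes were taken by symbol and were selected on their CPM per library compared over the 3 groups, that is, with results of these 9 libraries known. CPM is the customary measure of a gene's count relative to the total of its library, here the total after TMM scaling. Their levels and fold changes are therefore given as descriptions, without tests of their own. All 10 were found, and all 10 passed the filter on low counts. The remaining 6 core subunits, Cdc16, Cdc23, Cdc26, Cdc27, Anapc13 and Anapc15, were set beside them.

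The APC/C is a ubiquitin ligase that marks cyclin B and securin for destruction by the proteasome, which lets chromosomes separate and cells leave M phase. It needs an activator to bind substrates: Cdc20 acts at the onset of anaphase, and Fzr1, also called Cdh1, acts later in mitosis and in G1, and in mouse oocytes helps to hold the prophase arrest. Ovulated oocytes wait at metaphase II because Emi2, the product of Fbxo43, holds the complex inactive until fertilisation. Growing oocytes store transcripts, transcription stops before ovulation, and many stored messages are switched on or off through the length of their poly(A) tails.

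The oocytes came from female ICR mice, an outbred stock, labelled as 4 to 5 weeks old, in 3 groups of 3. This cannot be the age at collection of mice stressed for 6 weeks, and the age at collection is not stated here. KYZY mice were stressed for 6 weeks and then received 0.1 ml a day of a decoction of Kai Yu Zhong Yu, an herbal recipe, by gavage for 4 weeks. Stress mice had the same chronic unpredictable mild stress, with 1 stressor a day out of tail pinch, cold swim, loss of water or food, wet bedding, continuous light and restraint. Control mice had no stress. All 3 groups received 7.5 IU of PMSG and 7.5 IU of hCG, so every oocyte came from a hormone-primed ovulation. Oocytes at metaphase II were taken from the oviducts 16 hours after hCG and stripped of cumulus cells with hyaluronidase. Each library pooled 15 oocytes of 1 mouse. The labels describe a gavage only for KYZY mice, and they describe the sequencing of the KYZY libraries (a NovaSeq system) in other words than that of the stress and control libraries (clusters made on a cBot station). The recipe, its 4 further weeks, the gavage and the sequencing therefore cannot be told apart in either comparison with KYZY.

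The 9 libraries held total counts of 46324094 to 106990821, and 13257 to 15802 genes had a value above 0. All 10 oocyte markers were above 0 in every library, with summed levels of 53675 to 84463 CPM. KYZY 2, KYZY 3, stress 3 and control 3, that is 2 of 3 KYZY libraries and 1 of 3 in each other group, stood apart by markers of cumulus and granulosa cells, the somatic cells around the oocyte. Their marker score, the mean log2(CPM + 1) over 20 genes, was 3.18, 3.27, 2.37 and 2.71, while the other 5 libraries scored 1.26 to 1.62. In the 4 libraries 17 to 19 of the 20 markers were above 0, against 8 to 16 in the other 5. Summed cumulus marker levels were 765 to 1760 CPM in KYZY, 698 to 1423 CPM in stress and 621 to 896 CPM in control libraries. These sums do not measure the amount of cumulus RNA, since Serpine2 and Sdc1 were high in every library, at no less than 359 and 155 CPM. In KYZY 1, with a sum of 765 CPM, Serpine2 stood at 499 and Sdc1 at 229 CPM. Tnfaip6 and Ptx3, genes of the expanded cumulus matrix, were at 0 in all 5 other libraries and at 1.94 to 16.5 and 0.916 to 2.86 CPM in the 4. Not all of the 20 markers followed this split. Star was at 0.373 CPM in stress 3 and 3.54 CPM in stress 2, and Nr5a2 was lowest in control 3 and KYZY 3, at 7.25 and 7.43 CPM. Markers of oviduct epithelium summed to 20.7 CPM in KYZY 3 and 12.7 CPM in control 3, and to at most 4.23 CPM in any other library. Those of blood and immune cells summed to at most 59.4 CPM (KYZY 2), of which Lyz2 held 58.1 CPM. In pooled oocytes with some somatic RNA, fewer cells of a type and less RNA per cell cannot be told apart.

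The 3′ ends of the transcripts are shown first, because cDNA synthesis in this protocol starts at the poly(A) tail and because cytoplasmic tail length is set by short motifs near the end of the message. The last 100 bases of the longest RefSeq-matched GENCODE M21 transcript were searched on the transcript strand for TTTTAT or TTTTAAT, the cytoplasmic polyadenylation element, and for AATAAA or ATTAAA, the polyadenylation hexamer. The motifs can overlap with one another. Of the 10 genes, Cdc20 alone held the element, and 16.6% of 20265 genes held it in the same window. A hexamer lay in the windows of 8 of the 10 genes, all but Anapc7 and Fzr1, and in 74.9% of the 20265. The 2 stretches below show Cdc20 with both motifs beside Anapc16, the subunit with the widest range of levels, with a hexamer alone. They are GRCm38 sequence of the minus strand at chr4:118432909-118432938 for Cdc20 and chr10:59987428-59987457 for Anapc16. Both lie in the 3′ UTR and are written 5′ to 3′ with the motifs in capitals.
Cdc20: ttaTTTTATtttttctAATAAAgttcgtat
Anapc16: gagttgcttaattataAATAAAtttaatcc
In Cdc20 the element and the hexamer begin 35 and 22 bases before the end, both within a 3′ UTR of 62 bases. A match is a description of the letters in the window, and tail length was not measured.

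Levels of different genes were compared as CPM per kilobase of the longest transcript, over all 9 libraries. Cdc20 was at 88.7 ± 18.6 CPM per kb (SD, n = 9) and ranked first among the 10 genes in 9 of 9 libraries. Anapc16, a small accessory subunit of animal complexes, came next at 32.7 ± 14.6 CPM per kb. Anapc5 (24.0 ± 5.09), Fzr1 (22.0 ± 7.53) and Anapc4 (20.2 ± 4.25 CPM per kb) had no settled order. Anapc16 exceeded Anapc5 in 6 of 9 libraries, Anapc5 exceeded Fzr1 in 5 and Fzr1 exceeded Anapc4 in 5. Anapc7 ranked sixth in all 9 libraries, at 12.3 ± 1.76 CPM per kb. Anapc10 (7.49 ± 0.899) and Anapc2 (7.33 ± 1.61 CPM per kb) exchanged places, with Anapc10 above in 6 of 9 libraries. Anapc1 at 3.46 ± 0.658 and Anapc11 at 2.75 ± 0.368 CPM per kb closed the order, with Anapc1 above in 8 of 9. On this scale the catalytic pair Anapc2 and Anapc11 lay below the scaffold subunits Anapc4 and Anapc5 in all 9 libraries. Anapc1, also of the scaffold, went the other way against Anapc2 and lay below it in all 9 libraries.

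The order depends on the length used. Per kilobase of coding sequence, which is short in Anapc16, this gene stood at 183 ± 81.9 and Cdc20 at 106 ± 22.3 CPM per coding kb, and 0 of the 10 genes kept their rank. Anapc11 then stood at 35.2 ± 4.72 CPM per coding kb, against 32.2 ± 6.76 for Anapc4. With the mean transcript length 8 of 10 kept theirs. Of the 6 other core subunits, Cdc27, a tetratricopeptide subunit that receives the activators, was at 22.5 ± 5.90 CPM per kb, between Anapc5 and Fzr1. Cdc26, which holds Cdc16 in its fold, was at 9.09 ± 2.15, Anapc15, needed for turnover of the checkpoint complex, at 4.00 ± 1.35, Cdc16 at 3.83 ± 0.982 and Cdc23 at 1.63 ± 0.110 CPM per kb. Anapc13 was the lowest of the 16 genes at 0.443 ± 0.463 CPM per kb.

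**Figure D1:**
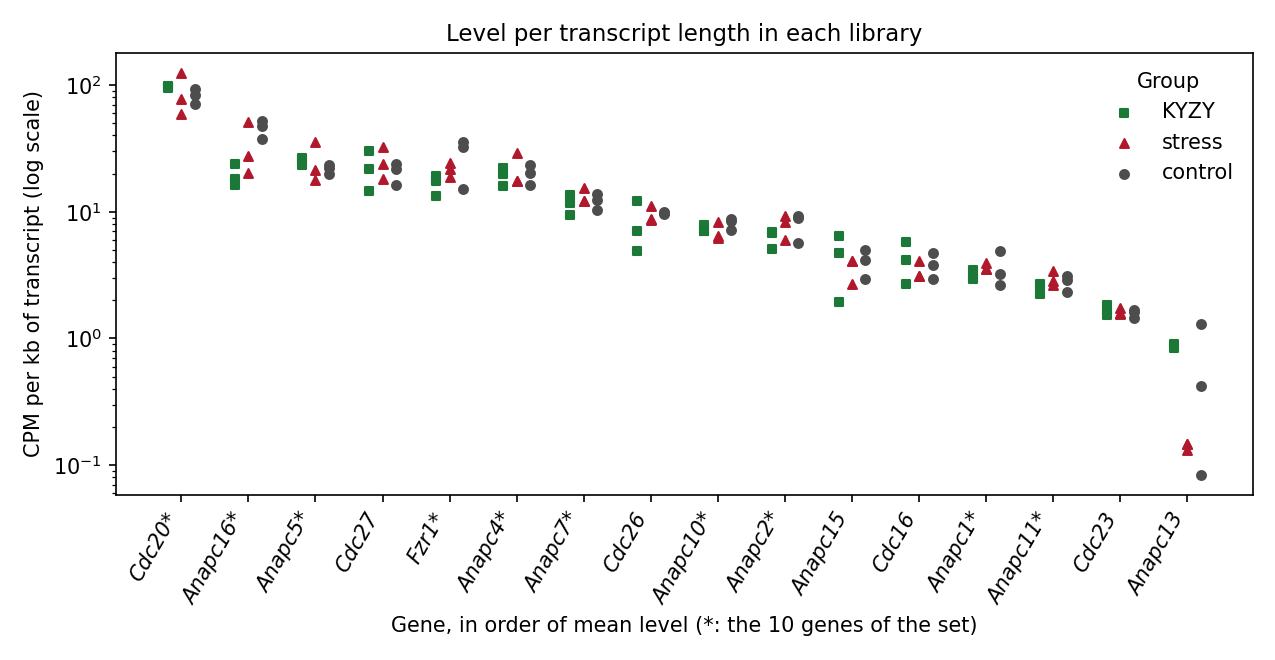
Level of each gene in CPM per kb of its longest transcript (log axis), 1 point per library, for the 10 genes and the 6 other core subunits. Cdc20 lies highest in all 9 libraries, and Anapc13, whose single value of 0 in KYZY 1 cannot be drawn on a log axis, lies lowest.

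Among the activators, Cdc20 (chr4:118432901-118437343, minus strand) varied little in KYZY oocytes and widely in stress oocytes. It was at 174, 175 and 170.1 CPM in KYZY 1, 2 and 3, at 106, 140.0 and 222 CPM in stress 1, 2 and 3, and at 148, 127 and 167 CPM in control 1, 2 and 3. All KYZY libraries lay above all control libraries, by a margin of 170.1 against 167 CPM, and inside the stress range. The group means were 173 ± 2.74 CPM in KYZY, 156 ± 59.7 in stress and 148 ± 19.6 CPM in control (SD, n = 3 each). The log2 fold changes were 0.15 (SE 0.269) in KYZY against stress, 0.23 (SE 0.269) in KYZY against control and 0.083 (SE 0.269) in stress against control. Stress 3 decided the last of these: without it, stress against control was -0.26, and KYZY against stress was 0.49. Without stress 1 they were 0.29 and -0.041. Cdc20 shares 53 exonic bases, 2.84% of its exons, with Elovl1 on the other strand, and reads from there cannot be assigned in a protocol for which no strand information is stated.

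Fzr1 (chr10:81366879-81378370, minus strand), the other activator, was at 58.8, 41.0 and 53.6 CPM in KYZY 1, 2 and 3, at 73.8, 66.0 and 57.9 CPM in stress 1, 2 and 3, and at 109, 98.2 and 45.8 CPM in control 1, 2 and 3. Control 1 and control 2 were the highest of the 9 libraries, and control 3 was lower than every library but KYZY 2, so KYZY and control overlapped. The means were 51.1 ± 9.15 CPM in KYZY, 65.9 ± 7.95 in stress and 84.3 ± 33.8 CPM in control (SD, n = 3 each). The log2 fold changes were -0.37 (SE 0.304) in KYZY against stress, -0.72 (SE 0.305) in KYZY against control and -0.36 (SE 0.304) in stress against control. The value for KYZY against control was -0.99 without control 3 and -0.50 without control 1. For stress against control it was -0.65 without control 3 and -0.13 without control 1.

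Fzr1 was the only one of the 10 genes whose level in the 4 libraries of high cumulus score did not overlap that in the other 5. It stood at 41.0 to 57.9 CPM in KYZY 2, KYZY 3, stress 3 and control 3, against 58.8 to 109 CPM in the rest. The share of all genes tested that separate in this way was not counted, so nothing is read from this separation. With the cumulus score as a covariate, the log2 fold change of Fzr1 was 0.034 in KYZY against stress and -0.31 in KYZY against control. The part of cumulus RNA in these values was not tested. Without the 4 libraries, which leaves KYZY 1 alone in its group, KYZY against control was -0.79. Anapc16 overlapped between the 4 libraries and the other 5, at 30.1 to 69.6 CPM (median 35.7) and 43.9 to 96.6 CPM (median 88.4), a wider gap between medians than that of Fzr1 at 49.7 and 73.8 CPM. In each group the libraries of high cumulus score were also the lowest for Anapc16: KYZY 2 and KYZY 3, stress 3, and control 3. Cdc20 overlapped too, at 167 to 222 and 106 to 174 CPM.

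**Figure D2:**
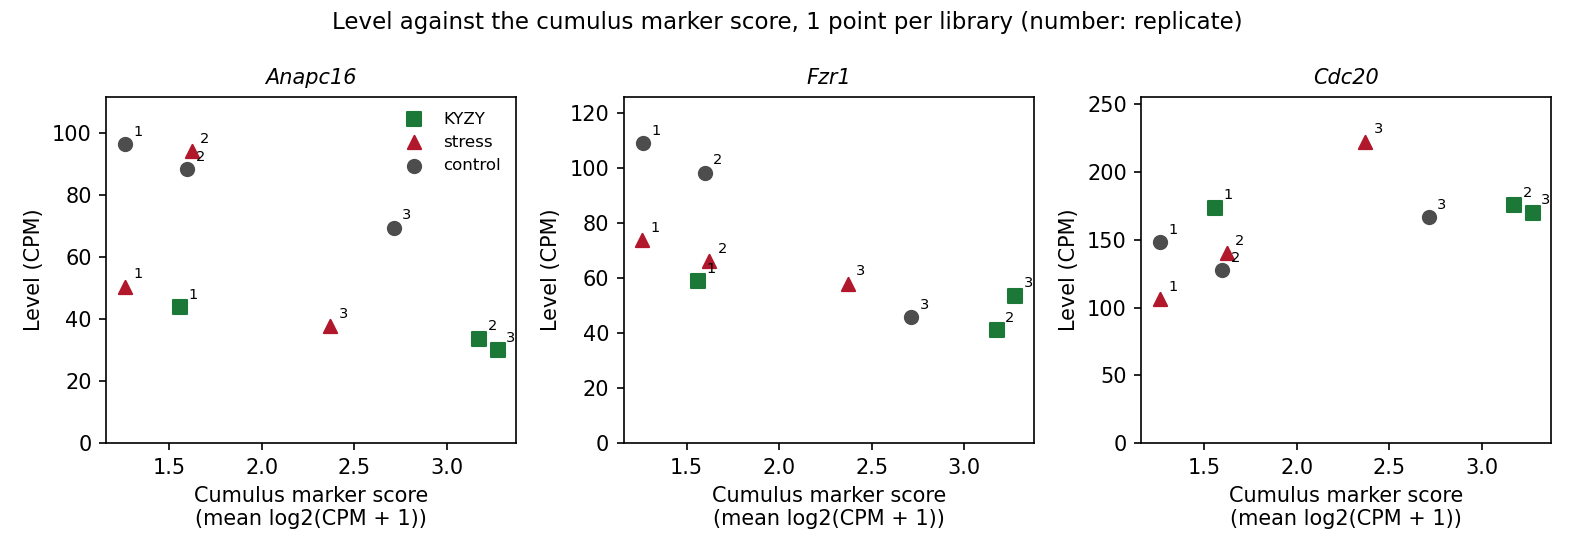
CPM of Anapc16, Cdc20 and Fzr1 (vertical axes) against the cumulus and granulosa marker score of each library (horizontal axis, mean log2(CPM + 1) over 20 genes). The 4 libraries scoring 2.37 to 3.27 all lie below the other 5 for Fzr1, and overlap with them for Anapc16 and Cdc20. The share of all genes tested that separate in this way was not counted, so nothing is read from the separation.

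The ratio of Cdc20 to Fzr1 in CPM, not corrected for length, was 2.95, 4.28 and 3.17 in KYZY 1, 2 and 3. The ratios of stress 1, 2 and 3 were 1.44, 2.12 and 3.84, and those of control 1, 2 and 3 were 1.36, 1.30 and 3.64. Its means were 3.47 ± 0.709 in KYZY, 2.47 ± 1.24 in stress and 2.10 ± 1.33 in control (SD, n = 3 each). The groups overlapped, and stress 3 and control 3, with the high cumulus scores of their groups, held the highest ratio of each.

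Anapc16 (chr10:59987409-60003135, minus strand) showed the largest distance between groups of the 10. In vertebrate complexes it is a small subunit bound to the arm of tetratricopeptide subunits. It was at 43.9, 33.7 and 30.1 CPM in KYZY 1, 2 and 3, at 50.5, 94.3 and 37.7 CPM in stress 1, 2 and 3, and at 96.6, 88.4 and 69.6 CPM in control 1, 2 and 3. Each KYZY library lay below each control library, while stress libraries spread over both. The means were 35.9 ± 7.14 CPM in KYZY, 60.8 ± 29.7 in stress and 84.9 ± 13.8 CPM in control (SD, n = 3 each). The log2 fold changes were -1.24 (SE 0.326) in KYZY against control, a level 0.423 times that of control, -0.76 (SE 0.323) in KYZY against stress and -0.48 (SE 0.322) in stress against control.

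The KYZY to control difference of Anapc16 lay between -1.42 and -0.96 in 18 alternative settings. It was -0.96 with the cumulus score as a covariate. Without the 4 libraries of high cumulus score it was -1.05, with KYZY 1 alone in its group. The other comparisons moved with single stress libraries. Without stress 2, KYZY against stress was -0.28 and stress against control was -0.95, and without stress 3 they were -1.01 and -0.23. Across all 9 libraries its highest value was 3.20 times its lowest, the widest range among the 10 genes, followed by Fzr1 at 2.66 and the narrowest, Anapc10, at 1.40. The SD of log2 values within groups ran from 0.163 for Anapc10 to 0.441 for Anapc16, with a median of 0.315 over the 10 genes and 0.357 over all genes tested.

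Of the scaffold, Anapc1 (chr2:128610083-128687406, minus strand), the largest subunit, was at 30.8, 26.2 and 26.6 CPM in KYZY 1, 2 and 3, at 31.7, 31.8 and 35.3 CPM in stress 1, 2 and 3, and at 28.9, 43.6 and 23.8 CPM in control 1, 2 and 3. KYZY and stress libraries did not overlap, with 30.8 and 31.7 CPM as their nearest values, and control libraries covered both. Its log2 fold change was -0.24 (SE 0.230) in KYZY against stress. Anapc4 (chr5:52834135-52866734, plus strand) averaged 74.6 ± 12.5 CPM in KYZY, 82.5 ± 26.0 in stress and 76.5 ± 13.6 CPM in control (SD, n = 3 each), with stress 3 at 113 CPM above all others. Anapc5 (chr5:122787459-122822339, minus strand) was at 64.6, 73.1 and 70.4 CPM in KYZY 1, 2 and 3, at 59.2, 49.0 and 98.1 CPM in stress 1, 2 and 3, and at 55.2, 61.2 and 64.1 CPM in control 1, 2 and 3. KYZY and control were separated by 64.6 against 64.1 CPM, a log2 fold change of 0.21 (SE 0.252). The highest value was again that of stress 3, without which stress against control was -0.15, while it was 0.19 with all libraries.

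In the catalytic core and its neighbours, each group overlapped each other group. Anapc2 (chr2:25272466-25285916, plus strand), the cullin subunit, averaged 18.8 ± 3.18 CPM in KYZY, 23.5 ± 5.04 in stress and 23.7 ± 5.90 CPM in control (SD, n = 3 each). Its log2 fold changes were -0.32 in KYZY against stress and -0.33 in KYZY against control, and with the cumulus score as a covariate KYZY against stress gave 0.0098. Anapc11 (chr11:120598421-120608198, plus strand), the RING subunit that binds the ubiquitin-conjugating enzyme, averaged 8.06 ± 0.762 CPM in KYZY, 9.59 ± 1.30 in stress and 8.95 ± 1.26 CPM in control. It had the lowest single count of the 10 genes, 404, which is about 101 read pairs. Anapc10 (chr8:79711736-79777321, plus strand), which helps the activator to bind the substrate's destruction box, averaged 20.5 ± 1.26 CPM in KYZY, 19.7 ± 3.24 in stress and 22.8 ± 2.34 CPM in control. Anapc7 (chr5:122422444-122444912, plus strand), a tetratricopeptide subunit of the arm that holds the activator, averaged 31.9 ± 5.70 CPM in KYZY, 36.3 ± 4.89 in stress and 33.5 ± 4.69 CPM in control (SD, n = 3 each).

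**Figure D3:**
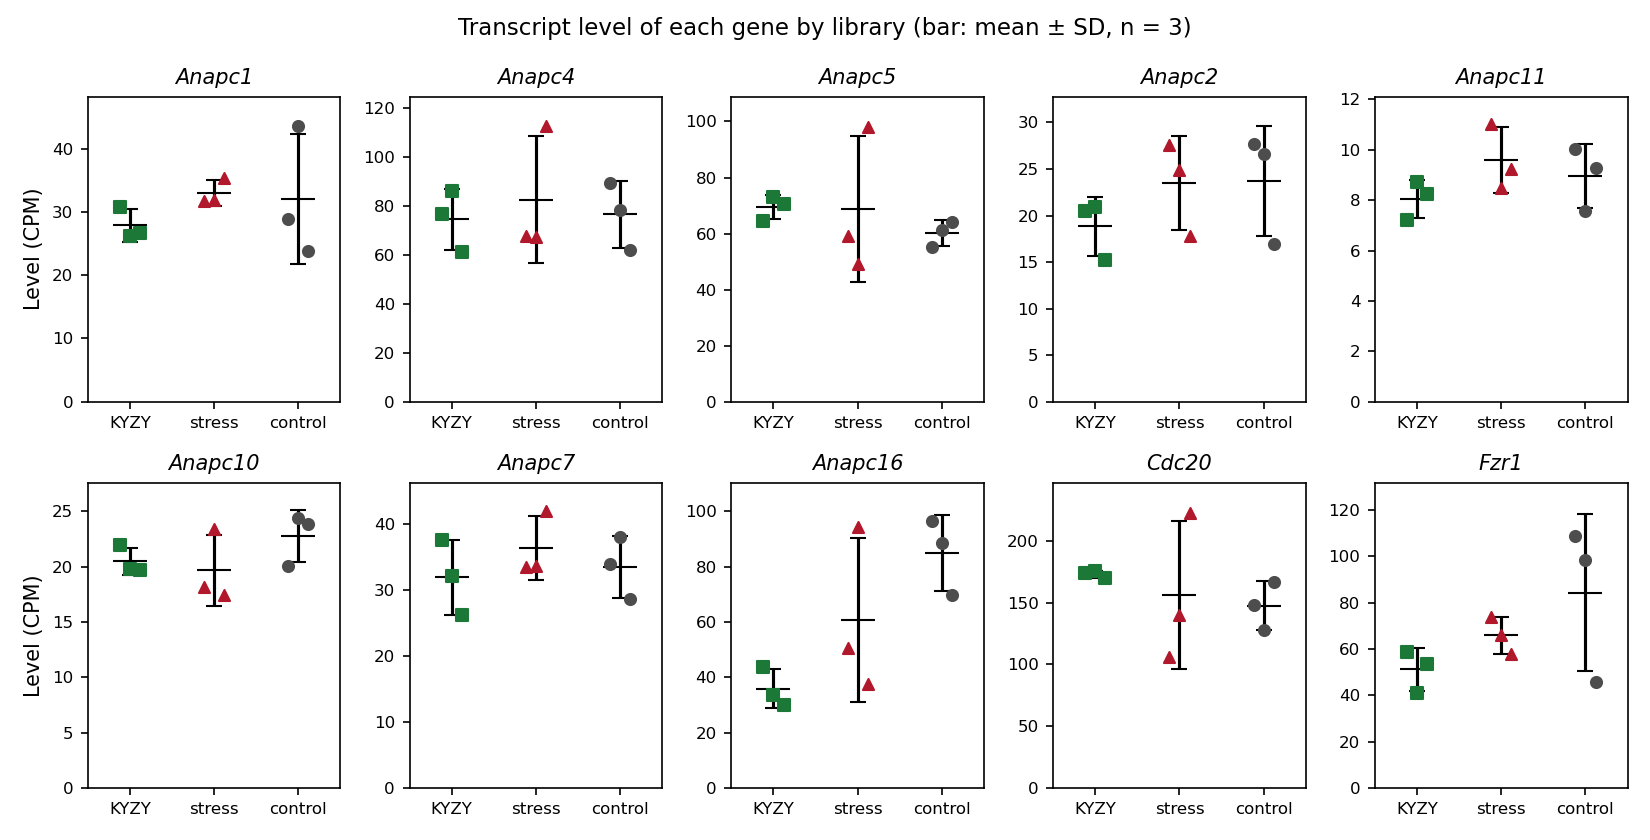
CPM of each of the 10 genes in every library (points) with the group mean and SD (n = 3), KYZY left, stress in the middle and control right, each vertical axis starting at 0. KYZY points lie below all control points for Anapc16 and narrowly above them for Cdc20 and Anapc5, and below all stress points for Anapc1.

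None of the 10 genes was called at an adjusted p under 0.05 in any of the 3 comparisons by edgeR's quasi-likelihood test with Benjamini-Hochberg adjustment over 13890 genes, nor by DESeq2. The share of all genes called by edgeR was 0% in each comparison, and by DESeq2 it was 0.0941% in KYZY against stress, 0.0217% in KYZY against control and 0.152% in stress against control. At an unadjusted p under 0.05, edgeR held 553 genes (3.98%) in KYZY against stress, 380 genes (2.74%) in KYZY against control and 373 genes (2.69%) in stress against control. The 10 genes gave 1 such value in KYZY against stress (Anapc16), 2 in KYZY against control (Anapc16 and Fzr1) and 0 in stress against control, and nothing is read from these counts, since the genes were picked with these comparisons known.

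In KYZY against stress, 3 of the 10 genes had a positive and 7 a negative log2 fold change, with a median of -0.22, while the median of all genes tested was 0.0083. In KYZY against control, 2 were positive and 8 negative, with a median of -0.15 against -0.0032 for all genes. In stress against control, 6 were positive and 4 negative, with a median of 0.061 against -0.035. Without the 4 libraries of high cumulus score, 1 was positive and 9 were negative in stress against control, with a median of -0.12, and in KYZY against stress 5 were positive and 5 negative, with a median of 0.033. Groups without overlap were found in KYZY against stress for 1 gene of the 10 that was lower (Anapc1; 5.44% of all genes tested) and 0 that were higher (3.76% of all genes). In KYZY against control there were 1 lower (Anapc16; 4.79% of all genes) and 2 higher (Anapc5 and Cdc20; 2.43%). In stress against control there were 0 in either direction (4.38% of all genes lower, 3.51% higher). KYZY is shared by the first 2 comparisons, stress by the first and the last, and control by the last 2, so their values are not independent.

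**Figure D4:**
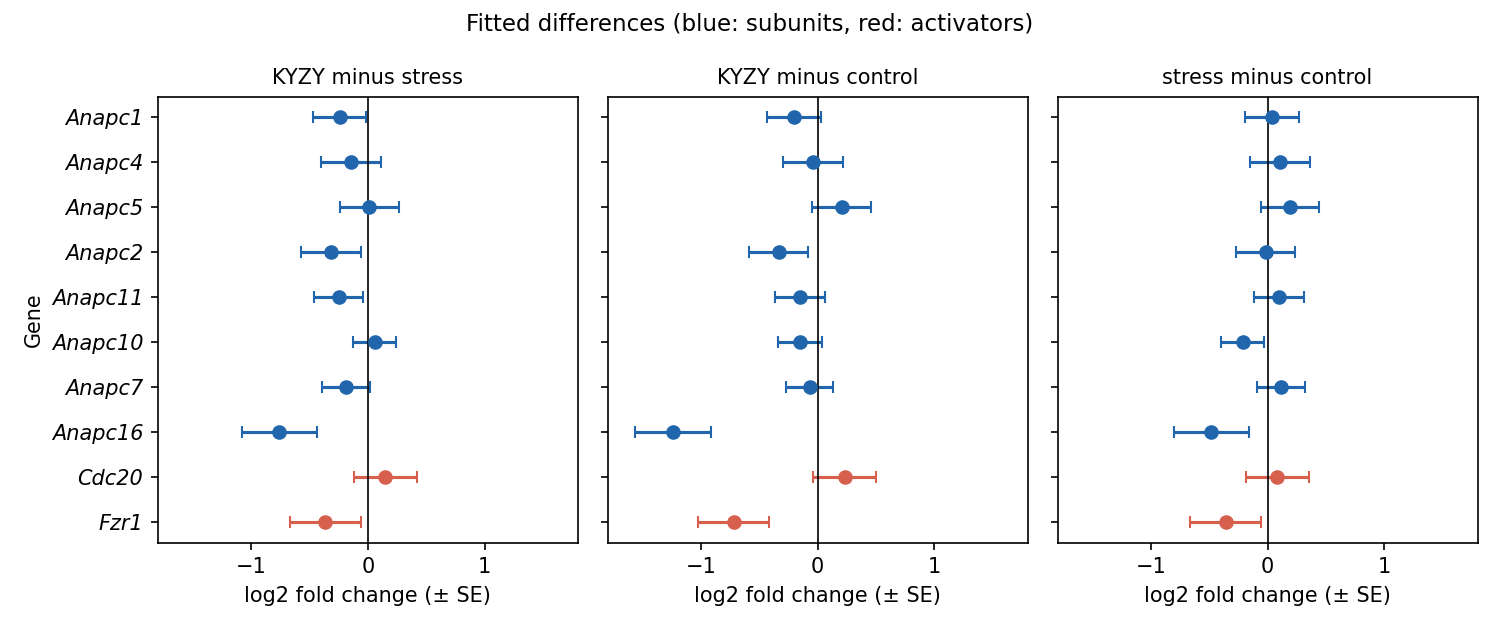
Log2 fold change of each of the 10 genes in KYZY against stress, KYZY against control and stress against control, with bars of 1 SE from the edgeR fit. Anapc16 has the most negative value in each comparison, at -0.76, -1.24 and -0.48, and of the remaining genes Fzr1 in KYZY against control, at -0.72, is the only value more than 2 SE from 0.

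The rest of the pathway was described from a list of 27 genes: the 6 other core subunits, ubiquitin-conjugating enzymes, inhibitors, checkpoint disassembly factors, substrates and separase. In each comparison 0 of 27 were called in either direction by edgeR or by DESeq2, and 0 had an unadjusted p under 0.05. The list had 18 positive and 9 negative log2 fold changes in KYZY against stress (median 0.083), 18 and 9 in KYZY against control (median 0.079) and 16 and 11 in stress against control (median 0.020).

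Among the other core subunits, Cdc27 averaged 119.6 ± 42.0 CPM in KYZY, 134 ± 39.0 in stress and 112 ± 21.3 CPM in control (SD, n = 3 each). Cdc23 was the steadiest, at 6.92 ± 0.608 CPM in KYZY, 6.72 ± 0.361 in stress and 6.56 ± 0.479 CPM in control. Cdc16 averaged 9.70 ± 3.51, 7.93 ± 1.25 and 8.80 ± 2.05 CPM in KYZY, stress and control, and Cdc26 averaged 6.59 ± 3.06, 7.73 ± 1.17 and 8.01 ± 0.140 CPM. Anapc15 averaged 13.5 ± 7.01 CPM in KYZY, 11.2 ± 2.53 in stress and 12.5 ± 3.18 CPM in control, and 38.4% of its exonic bases overlap Tomt on the other strand. Anapc13, a small subunit that steadies the arm, had counts of 0, 34 and 26 in KYZY, 7, 10 and 5 in stress, and 3, 26 and 59 in control libraries 1, 2 and 3. In 5 of the 9 libraries this was at or below 12 counts, about 3 read pairs, so no fold change is given for it.

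Ube2c, the enzyme that starts ubiquitin chains, averaged 59.7 ± 12.1 CPM in KYZY, 45.7 ± 26.9 in stress and 48.5 ± 20.6 CPM in control (SD, n = 3 each), and 22.8% of its exonic bases overlap Tnnc2 on the other strand. Ube2s, which extends the chains, averaged 18.1 ± 3.80 CPM in KYZY, 14.1 ± 4.25 in stress and 13.9 ± 1.87 CPM in control. For both enzymes each group overlapped each other group.

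Fbxo43, which encodes the inhibitor that keeps metaphase II arrest, was at 163, 267 and 173 CPM in KYZY 1, 2 and 3, at 81.0, 93.5 and 225 CPM in stress 1, 2 and 3, and at 98.6, 86.6 and 160 CPM in control 1, 2 and 3. All KYZY libraries lay above all control libraries, with 163 and 160 CPM nearest, and stress 3 lay among the KYZY libraries. The log2 fold change was 0.81 (SE 0.412) in KYZY against control, with an adjusted p of 0.996 by edgeR's quasi-likelihood test. Within the stress and control groups the highest value was that of stress 3 and control 3, the libraries of high cumulus score, as it was in KYZY 2 among KYZY libraries. The part of cumulus RNA in this was not tested. Fbxo5, which encodes Emi1, the inhibitor of interphase and prophase I, averaged 402 ± 89.3 CPM in KYZY, 426 ± 215 in stress and 364 ± 89.8 CPM in control (SD, n = 3 each).

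Among the substrates, Ccnb1, cyclin B1, averaged 5168 ± 1269.7 CPM in KYZY, 4801 ± 1419 in stress and 4486 ± 861 CPM in control (SD, n = 3 each). Pttg1, securin, averaged 5231 ± 523 CPM in KYZY, 3691 ± 2607 in stress and 4638 ± 942 CPM in control. Ccnb2, cyclin B2, averaged 99.9 ± 21.4, 112 ± 11.8 and 96.7 ± 14.0 CPM in KYZY, stress and control. Espl1, the separase that securin holds back, averaged 129.6 ± 11.1, 123 ± 17.9 and 123 ± 3.77 CPM in the 3 groups in the same order.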

How the data were processed

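The authors deposited 1 table per library of whole-number expected counts per gene, not normalized; this unit is inferred from their values and from the software in the submitters' processing notes (bcl2fastq 2.20, Trim Galore, HISAT2, StringTie, DESeq2; builds GRCm38 and mm10), whose roles, settings and other versions are not given in the sources used here. About 4 units stand for 1 read pair, so a floor of 3 read pairs is 12 counts, or 0.105 to 0.245 CPM; floors and counts cover counting error only, since amplified reads here carry no molecular identifiers. Each library comes from 1 mouse, per the labels. No pair of libraries held identical values.

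The analysis used edgeR 4.0.16 under R 4.3.3: TMM scaling, filterByExpr (minimum count 10, minimum total 15), which kept 13890 genes and dropped 10846, 1 robust quasi-likelihood fit of all 9 libraries and 3 group means (6 residual degrees of freedom; common biological coefficient of variation 0.611), 2-sided tests and Benjamini-Hochberg adjustment at 0.05. The fit was also run on simulated data, and its recovery of small fold changes is not given here. An absence of calls therefore does not show equal levels. Alternatives included DESeq2 1.42.0, other scaling and filters, a cumulus score covariate and libraries left out. Lengths, overlaps and 3′ ends come from GENCODE M21, coordinates from RefSeq, on GRCm38.

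The 10 genes and the pathway and marker lists were chosen with earlier results of these data known. Named were the 10 genes, the 6 other core subunits, Ube2c, Ube2s, Fbxo5, Fbxo43, Ccnb1, Ccnb2, Pttg1 and Espl1, and any other pathway gene called or with groups that did not overlap. The labels do not say that replicate numbers pair mice. Deviations of same-numbered stress and control libraries from their group means correlated at 0.212, 0.327 and 0.346 across genes. Stress 1 correlated better with control 2, at 0.326, than with control 1. For numbers 1, 2 and 3, KYZY and control libraries correlated at 0.557, -0.117 and 0.634. KYZY and stress libraries correlated at 0.373, -0.196 and 0.122 in the same order.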

Additional observations from a re-analysis of the deposited data

How the results depend on the processing

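None of the 10 genes was called under any alternative. Of their 30 log2 fold changes, 12 kept one sign in every alternative, and 535 of 550 alternative values moved by less than 1 SD between replicates. That limit is wide. With the cumulus score as a covariate, Fzr1 in KYZY against stress went from -0.37 to 0.034, within its SD of 0.432. The 550 values also include fits without a library of the group not compared, which could move a value little. The count therefore does not show that the values are stable. The number of genes called over the whole table, 0 in each comparison, was less settled. DESeq2 called 13 genes in KYZY against stress, 3 in KYZY against control and 21 in stress against control. Leaving out KYZY 2, KYZY 3, stress 3 and control 3 gave 115, 119 and 148 in the same order, with 2 residual degrees of freedom and KYZY 1 assumed to vary like the other groups, and moved the median of the 10 genes in KYZY against stress to 0.033. The cumulus score as a covariate gave 5 in KYZY against stress and 1 in KYZY against control. A fit of the KYZY and stress libraries alone gave 1. Leaving out 1 library in turn gave 0 to 1, 0 to 3 and 0 to 2 calls, the highest each time without control 3; the causes were not tested. With a replicate block in the fit of all 9 libraries, 0 genes were called in each comparison, and with a block in stress and control only, an alternative chosen after seeing the data, 1 gene was; no call among the 10 genes changed. Without 1 library in turn, the median of the 10 genes ran from -0.25 to -0.10 in KYZY against stress, from -0.21 to -0.052 in KYZY against control and from -0.14 (without stress 3) to 0.10 in stress against control. Per coding length, 0 of 10 ranks were kept.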
